A study of Homo sapiens with 16 samples.

Results

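Cholesterol and long-chain fatty acids are built from the same cytosolic acetyl-CoA, and 30 genes of these routes were followed in 2 colorectal cancer cell lines, SW480 and HCT116, treated with curcumin or andrographis. The genes were taken by name and protein-coding annotation from each of the 2 deposited tables, where all 30 were found among 60560 annotated genes. The sterol branch held 23 of them, including the regulators, and the fatty acid branch held 7 (ACLY, ACACA, FASN, ELOVL6, SCD, FADS1 and FADS2). The list was chosen with earlier results of these data known.

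The study profiled RNA after 16 h of treatment in 16 libraries, 2 per group. The groups were SW480 cells given curcumin, HCT116 cells given curcumin, SW480 cells given andrographis, HCT116 cells given andrographis, and the non-treated controls of each line in each experiment. Curcumin was the BCM-95 turmeric complex and andrographis an extract of the leaves of Andrographis paniculata, both dissolved in DMSO. The paper sets a lower dose of each botanical for HCT116 than for SW480, and states that its later experiments used these doses. A difference between the treated lines can therefore not be told apart from a difference in dose. Both lines are established epithelial lines grown in serum-containing medium, each 1 line, so a group describes that line only. The labels do not say whether replicates 1 and 2 were grown apart, so a p-value here reflects only how far those libraries differ, which may be technical. The andrographis controls stand in columns lettered D, read here as the DMSO vehicle, and every direction given for andrographis rests on that reading.

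Cells make cholesterol through the mevalonate pathway, which runs from acetyl-CoA to squalene and then through lanosterol to cholesterol. The transcription factors SREBP-2 and SREBP-1, made from SREBF2 and SREBF1, switch on the genes of the sterol and fatty acid branches. Both factors sit in the endoplasmic reticulum bound to the escort protein SCAP, and INSIG1 is the anchor that retains SCAP when sterols are plentiful. When sterols run low, SCAP escorts the factors to the Golgi. Cleavage of the factors in the Golgi then frees the part that enters the nucleus, a step that RNA levels do not measure. Rapidly dividing tumour cells, colorectal ones included, draw on both branches for membranes.

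Each value is an expression level in FPKM, fragments per kilobase of gene and per mega-read, recovered from the deposited log2(FPKM + 1). Depth, in M (mega) reads per library, was 9.40 to 23.1 in the curcumin experiment and 15.7 to 32.3 in the andrographis experiment. The 2 experiments differ in the make-up of their deposited values. Protein-coding genes took 80.9 to 85.7% of the summed FPKM in the curcumin experiment and 96.9 to 97.6% in the andrographis experiment, and mitochondrial genes took 35.8 to 41.8% against 0.0395 to 0.0853%, so levels were never tested across experiments. In each line and experiment 6 of 9 colorectal epithelial markers reached 1 FPKM in every library, while KRT20 was at 0 throughout. None of 5 immune, 3 endothelial and 4 adipocyte or hepatocyte markers did so, and of 6 stromal markers only COL1A1 did, in all but the SW480 libraries of the curcumin experiment. The 2 SW480 libraries given andrographis agreed least with each other (Pearson's r = 0.969 across genes, which are not independent replicates). By r, the HCT116 controls of the curcumin experiment (r = 0.977) and the SW480 controls of the andrographis experiment (r = 0.979) came next. The median absolute gap between the 2 libraries over all genes was 0.24, 0.13 and 0.19 log2 units in these groups, in that order.

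A gene was tested when it reached 1 FPKM in at least 2 libraries of its experiment. All 30 members passed among 12811 genes in the andrographis experiment and 28 among 16341 in the curcumin experiment. The 2 left out with curcumin were LSS, at 0.532 to 0.904 FPKM, and ACACA, at 0 to 0.233 FPKM and never over 54 reads. A change is the difference of mean log2(FPKM + 1), treated minus control, which understates changes of low genes. A gene counts as changed when limma's Benjamini-Hochberg adjusted p is under 0.05.

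Promoter sequence was examined because SREBP-driven genes share short elements near their starts. RefSeq (GRCh38.p14) windows of 300 bases, from 250 before to 50 after the start, were matched for 26 of the 30 genes. The sterol regulatory element TCACNCCAC was found on either strand in 1 of the 35 windows of these genes, that of SREBF2, and in 1.13% of all 35116 windows. The box CCAAT of NF-Y, a factor that works beside SREBP, was found in 24 of the 35 windows, against 34.6% of all windows, which belong to 16 sterol and 4 fatty acid genes. The Sp1 box GGGCGG was in 31 of the 35, against 45.0%, the E-box CACGTG in 5, against 7.26%, and the antioxidant element TGACNNNGC in 2, against 13.3%. Windows of 1 gene can overlap, and a match is a run of letters, not a bound site. Only these strings within 300 bases were searched, so a missing match does not show that a gene lacks the element. The promoters below show the sterol element of SREBF2 and the NF-Y boxes of 3 genes whose levels are described further on, which were chosen after their values were seen. Capitals mark TCACNCCAC in SREBF2 and CCAAT, or ATTGG on the other strand, in all 4.
SREBF2, chr22:41832855-41833154, plus strand: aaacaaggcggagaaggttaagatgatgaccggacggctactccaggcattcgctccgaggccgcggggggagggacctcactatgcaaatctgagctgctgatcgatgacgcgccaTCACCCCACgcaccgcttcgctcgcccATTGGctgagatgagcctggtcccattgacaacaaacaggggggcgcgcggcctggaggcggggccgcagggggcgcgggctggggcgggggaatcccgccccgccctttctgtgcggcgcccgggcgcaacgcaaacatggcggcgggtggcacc
HMGCS1, chr5:43313363-43313662, minus strand: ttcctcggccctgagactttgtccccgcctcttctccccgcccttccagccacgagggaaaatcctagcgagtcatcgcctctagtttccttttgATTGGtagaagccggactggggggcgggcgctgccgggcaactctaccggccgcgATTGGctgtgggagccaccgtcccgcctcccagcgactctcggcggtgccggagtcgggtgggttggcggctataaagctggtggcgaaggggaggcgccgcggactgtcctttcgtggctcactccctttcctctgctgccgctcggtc
NSDHL, chrX:152830813-152831112, plus strand: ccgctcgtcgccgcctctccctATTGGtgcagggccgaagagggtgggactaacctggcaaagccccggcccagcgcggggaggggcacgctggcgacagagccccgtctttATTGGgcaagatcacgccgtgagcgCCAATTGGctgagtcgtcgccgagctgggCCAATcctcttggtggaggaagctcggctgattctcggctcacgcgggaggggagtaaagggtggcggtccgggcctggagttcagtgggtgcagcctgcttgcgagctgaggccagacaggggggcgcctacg
LSS, chr21:46228725-46229024, minus strand: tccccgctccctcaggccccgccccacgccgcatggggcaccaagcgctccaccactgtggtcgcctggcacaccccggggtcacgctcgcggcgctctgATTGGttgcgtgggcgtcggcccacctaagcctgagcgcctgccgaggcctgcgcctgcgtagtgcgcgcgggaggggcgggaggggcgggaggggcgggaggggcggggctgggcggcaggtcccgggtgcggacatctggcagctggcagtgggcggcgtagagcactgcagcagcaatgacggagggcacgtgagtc
The NSDHL window holds 5 NF-Y boxes, of which 1 pair overlaps, the HMGCS1 window holds 2, and the LSS and SREBF2 windows hold 1 each.

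Control libraries show the deposited RNA level of these genes in each line and experiment. In the curcumin experiment both SW480 controls lay below both HCT116 controls for 20 of the 28 tested members, against 39.4% of all genes, and above them for 8, against 41.6%. In the andrographis experiment they lay below for 23 of 30, against 49.8% of all genes, and above for 3, against 32.8%. SCD, the desaturase that makes oleate, was the highest member in the curcumin controls, at 143 ± 1.84 FPKM in SW480 and 696 ± 17.7 FPKM in HCT116 (SD, n = 2 each). In the andrographis controls the highest was ACLY in SW480, at 195 ± 16.7 FPKM, and FASN in HCT116, at 354 ± 12.4 FPKM. The fatty acid branch thus held the highest member in each set of controls and, with ACACA in the curcumin experiment, also the lowest. ACACA averaged 0.0299 FPKM in SW480 and 0.144 FPKM in HCT116 controls there, but 2.57 and 1.63 FPKM in the andrographis controls of these lines. Its low level is thus a trait of the curcumin experiment, not of the lines, and the cause was not tested.

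**Figure D1:**
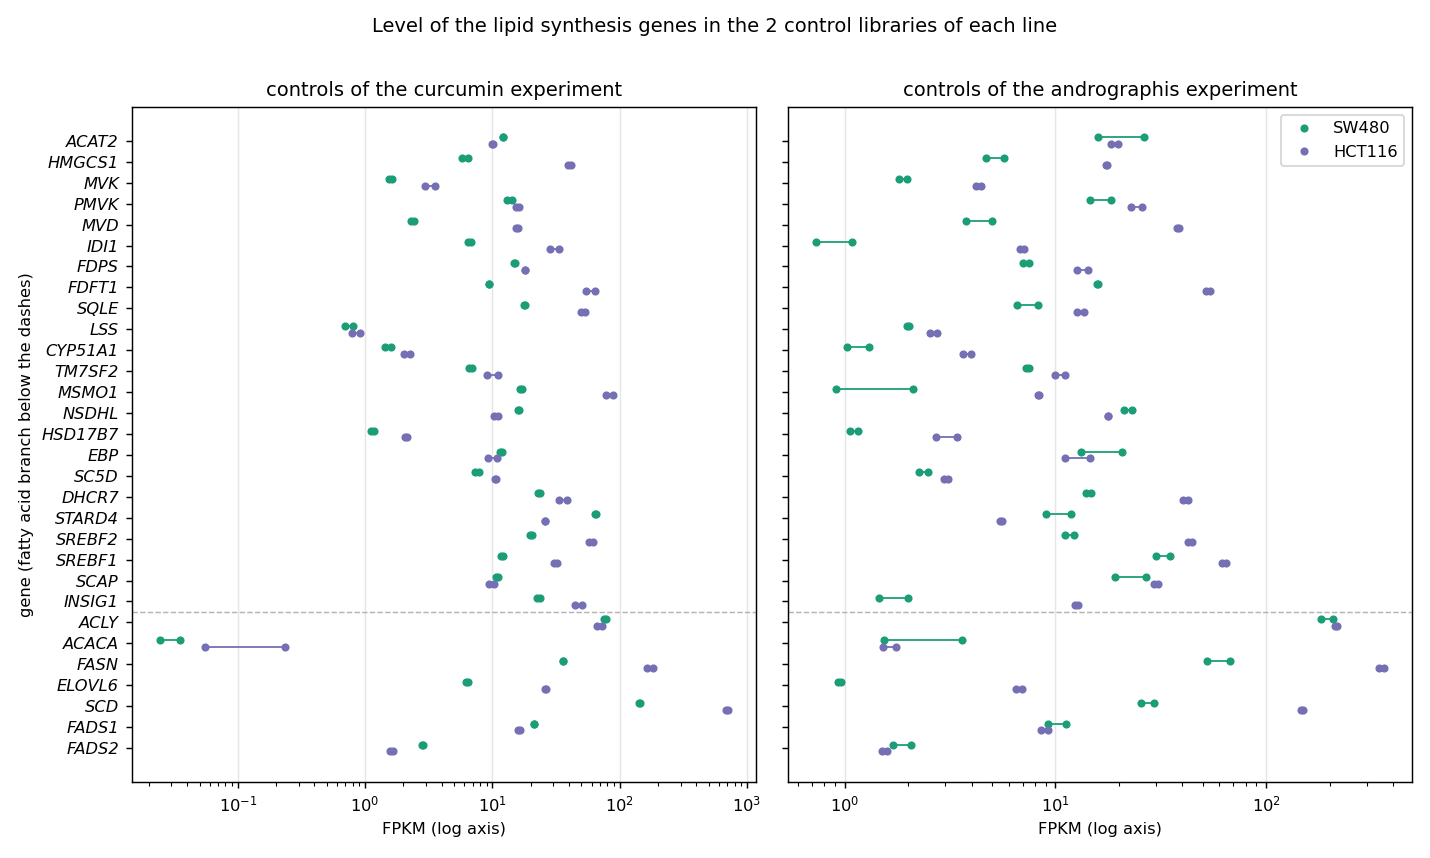
FPKM (log axis) of the 30 genes in the 2 control libraries of each line, joined by a line, for the curcumin (left) and andrographis (right) experiments. HCT116 controls lie to the right of SW480 controls for most genes, and SCD at 696 FPKM and ACACA at 0.0299 FPKM mark the ends of the curcumin experiment.

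Curcumin-treated SW480 cells held lower levels of nearly all of these genes than their controls, by small amounts, and none passed the test. Of the 28 tested members 0 were changed, against 0.306% of all genes, while 12 had an unadjusted p under 0.05, all lower, against 7.33% of all genes. Both treated libraries lay below both controls for 22 members (17 sterol, 5 fatty acid), against 27.8% of all genes. The fitted change was below 0 for 26 members, against 56.5%, with a median of -0.16 over the 22 sterol members and -0.12 over the 6 fatty acid members, beside -0.02 over all genes. With a pseudocount of 10 the sterol median was -0.07. In bulk RNA, less transcript per cell and fewer cells that express a gene cannot be told apart.

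In the early mevalonate steps the HMG-CoA synthase HMGCS1 stood at 4.61 and 4.75 FPKM in curcumin-treated SW480 cells, against 6.41 and 5.80 FPKM in their controls, a log2 fold change of -0.32 ± 0.06 (SE; limma adjusted p = 0.114). ACAT2, the cytosolic thiolase that supplies acetoacetyl-CoA, stood at 9.63 and 10.2 FPKM, against 12.1 and 12 FPKM in controls (-0.26 ± 0.06, limma adjusted p = 0.152). FDPS, which makes farnesyl diphosphate, stood at 12.2 and 12.2 FPKM, against 14.8 and 14.9 FPKM (-0.26 ± 0.05, limma adjusted p = 0.114). The groups did not overlap for any of these 3 genes, and the gap between them was wider than the gap within either group.

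Among the enzymes after squalene, the sterol reductase TM7SF2 had the lowest fitted change of the branch, with 4.80 and 4.89 FPKM in curcumin-treated SW480 cells, against 6.49 and 6.86 FPKM in controls (-0.39 ± 0.10, limma adjusted p = 0.199). The lanosterol demethylase CYP51A1 stood at 0.965 and 1.01 FPKM, against 1.59 and 1.43 FPKM (-0.34 ± 0.09, limma adjusted p = 0.191). MSMO1, which oxidises the methyl groups of lanosterol's products, shows a wider spread, with 11 and 15.8 FPKM, against 17.2 and 16.5 FPKM (-0.33 ± 0.15, limma adjusted p = 0.471). For MSMO1, IDI1 (-0.33) and MVK (-0.26), treated replicate 1 was well below treated replicate 2. The other way round, 9 of the 28 members were lower in treated replicate 2, among them PMVK with 15.6 and 10.8 FPKM. Treated replicate 1 was the shallowest library of the 16. Its part in these values was not tested, but without it the sterol median was -0.13. NSDHL and HSD17B7, which act with MSMO1, were at -0.02 and -0.03 with overlapping groups. The other enzymes lay closer to their controls. SQLE and FDFT1 were at -0.15, EBP, MVD and DHCR7 at -0.09, SC5D at -0.07 and PMVK at -0.06, and the cholesterol carrier STARD4 was at -0.17.

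Of the regulators, INSIG1, itself a classic SREBP target, stood at 18.0 and 18.4 FPKM in curcumin-treated SW480 cells, against 23.6 and 22.3 FPKM in controls (-0.32 ± 0.07, limma adjusted p = 0.146). SREBF2 stood at 17.9 and 17.1 FPKM, against 20.5 and 19.7 FPKM (-0.18 ± 0.06, limma adjusted p = 0.273). SREBF1 was closer, with 11.4 and 10.6 FPKM, against 11.7 and 12.2 FPKM (-0.11 ± 0.06, limma adjusted p = 0.576). SCAP was the one sterol member above its controls, at 11.1 and 11.6 FPKM, against 11 and 10.6 FPKM (0.07 ± 0.06, limma adjusted p = 0.758). In the fatty acid branch FASN, the synthase of palmitate, had the lowest fitted change, with 30.1 and 29.3 FPKM, against 35.7 and 36.0 FPKM (-0.26 ± 0.07, limma adjusted p = 0.194). FADS2, the first desaturase of polyunsaturated fatty acids, had the highest, with 2.73 and 2.98 FPKM, against 2.87 and 2.79 FPKM (0.01 ± 0.08), and its groups overlapped.

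In HCT116 cells curcumin again left most members lower than in controls, and the lowest fitted change was that of FASN, in the fatty acid branch. No member of 28 was changed, against 0.171% of all genes, and 12 had an unadjusted p under 0.05, all lower, against 5.82% of all genes. Both treated libraries lay below both controls for 22 members (18 sterol, 4 fatty acid), against 19.1% of all genes, and the fitted change was below 0 for 25, against 51.4%. The medians were -0.17 over the sterol members and -0.27 over the fatty acid members, beside -0.005 over all genes. Without control replicate 1 the sterol median was -0.27.

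FASN stood at 124 and 117 FPKM in curcumin-treated HCT116 cells, against 165 and 184 FPKM in their controls (-0.53 ± 0.07, limma adjusted p = 0.0693). It was the only member at the unadjusted threshold of the study's methods, p under 0.05 with a log2 fold change beyond 0.5, which 1.85% of all genes reached. SCD stood at 551 and 553 FPKM, against 684 and 709 FPKM (-0.33 ± 0.06, limma adjusted p = 0.132). ELOVL6, which lengthens palmitate, stood at 21.3 and 20.8 FPKM, against 26.5 and 25.9 FPKM (-0.30 ± 0.05, limma adjusted p = 0.115). ACLY, which cleaves citrate to acetyl-CoA, stood at 59.8 and 58.5 FPKM, against 66.8 and 72.5 FPKM (-0.23 ± 0.06, limma adjusted p = 0.215). The 4 enzymes from citrate to oleate that were tested therefore lay below their controls in both libraries, whereas the polyunsaturated desaturases did not. FADS1 stood at 16.8 and 16.7 FPKM, against 15.8 and 16.4 FPKM (0.05 ± 0.05), the highest of the branch, and FADS2 was at 0.00 ± 0.08. FADS1 and FADS2 overlap on chromosome 11, and how reads in the overlap were assigned is not given in the sources used here.

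In the sterol branch HMGCS1 had the lowest fitted change, with 31.0 and 29.9 FPKM in curcumin-treated HCT116 cells, against 41.1 and 39.5 FPKM in controls (-0.39 ± 0.06, limma adjusted p = 0.112). The squalene epoxidase SQLE, an oxygen-using step often named as a control point, stood at 41.5 and 40.6 FPKM, against 49.3 and 53.2 FPKM (-0.31 ± 0.05, limma adjusted p = 0.121). Both SREBP genes were lower as well. SREBF1 stood at 24.0 and 25.7 FPKM, against 30.2 and 32.2 FPKM (-0.32 ± 0.06, limma adjusted p = 0.162), and SREBF2 at 47.0 and 49.3 FPKM, against 57.3 and 61.2 FPKM (-0.29 ± 0.06, limma adjusted p = 0.159). INSIG1 was nearer its controls, with 43.4 and 44.4 FPKM, against 44.5 and 50.3 FPKM (-0.11 ± 0.07, limma adjusted p = 0.626), and was at -0.19 without control replicate 1 and -0.02 without control replicate 2. SCAP was the only sterol member fitted above 0, with 10.2 and 10.1 FPKM, against 9.40 and 10.3 FPKM (0.04 ± 0.06, limma adjusted p = 0.870). Among the late steps DHCR7 was at -0.26, MSMO1 at -0.24, SC5D at -0.23 and EBP at -0.17, and NSDHL had overlapping groups at 10.2 and 11.1 FPKM, against 10.2 and 11.1 FPKM. MVD, the decarboxylase that ends the mevalonate steps, was at -0.25 and TM7SF2 at -0.31, and the remaining sterol members lay between -0.18 and -0.11.

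These calls changed with the processing. When limma voom was run on the read numbers recovered from the FPKM steps, an analysis added after seeing the data, 6 of the 28 members were lower at an adjusted p under 0.05 in HCT116, against 0.73% of all genes. They were FASN (limma voom adjusted p = 0.00385), HMGCS1 (0.0161), SCD (0.0298), ELOVL6 (0.0364), SQLE (0.0412) and SREBF1 (0.0465). The same fit changed 0 of 28 in SW480, against 1.97% of all genes. With the original test, a filter at 10 FPKM gave 4 of 23 members in HCT116, against 2.31% of all genes, and a pseudocount of 10 gave 3 of 28, against 0.483%, all lower.

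**Figure D2:**
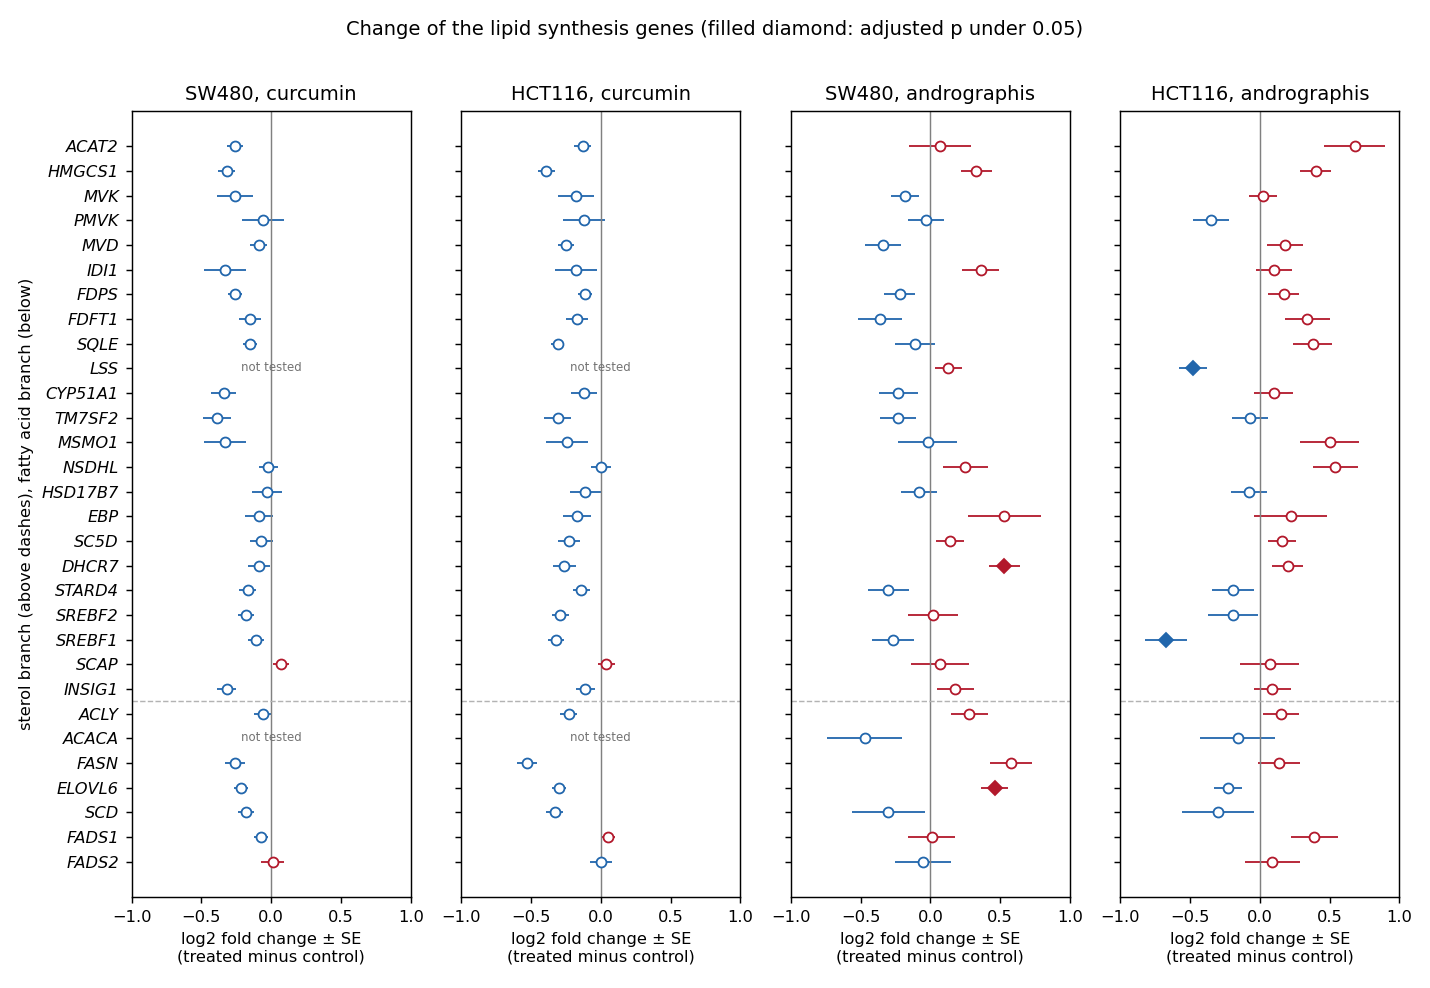
Log2 fold change (treated minus control, with SE) of each gene in pathway order for SW480 and HCT116 cells given curcumin or andrographis, with the fatty acid branch below the dashed line. Red points lie above 0 and blue ones at or below it, and filled diamonds mark an adjusted p under 0.05 (DHCR7 and ELOVL6 in SW480, SREBF1 and LSS in HCT116, all with andrographis).

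Between the lines the curcumin changes were alike in sign. The fitted change was below 0 in both SW480 and HCT116 for 21 of 22 sterol and 4 of 6 fatty acid members, together 25 of 28, against 33.4% of all genes. No member differed between the lines after adjustment, nor did any gene tested (0.0%). At an unadjusted p under 0.05, 1 member did, against 8.21% of all genes. That member was FASN, with a change in SW480 minus that in HCT116 of 0.27 ± 0.10 (SE; limma adjusted p = 0.542). Line and dose cannot be told apart in such a difference. LSS, which was not tested, stood at 0.588 and 0.532 FPKM in curcumin-treated SW480 cells, against 0.802 and 0.693 FPKM in controls, and at 0.587 and 0.614 FPKM in curcumin-treated HCT116 cells, against 0.904 and 0.785 FPKM. ACACA had 0 reads in both curcumin-treated SW480 libraries, against 5 and 10 reads in the controls, too few for a comparison.

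Andrographis gave a mixed picture in SW480 cells, with 2 members higher and no shift of either branch. DHCR7, which reduces the last double bond on the way to cholesterol (chr11:71427287-71449043), and ELOVL6 (chr4:110045846-110199202) rose. They were 2 of 30 members, against 7.28% of all genes changed and 3.08% changed upwards. The count of changed members is thus near the share of all genes changed in either direction. The median was -0.02 over the 23 sterol members, 11 above 0 and 12 below, and 0.01 over the 7 fatty acid members, beside -0.004 over all genes. The fitted change was below 0 for 15 of 30 members, against 50.7% of all genes. Both treated libraries lay above both controls for 8 members and below them for 6, against 21.1% and 23.2% of all genes.

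DHCR7 stood at 20.0 and 22.2 FPKM in andrographis-treated SW480 cells, against 14.7 and 14.0 FPKM in their controls (0.53 ± 0.11, limma adjusted p = 0.0396). ELOVL6 was much less abundant, with 1.83 and 1.52 FPKM, against 0.955 and 0.929 FPKM (0.46 ± 0.10, limma adjusted p = 0.0447). FASN had the largest fitted increase of the list, with 84.5 and 93.8 FPKM, against 67.2 and 52.2 FPKM (0.58 ± 0.15, limma adjusted p = 0.0638). The groups did not overlap for any of the 3, and both FASN and DHCR7 reached the unadjusted threshold of the methods, as did 11.8% of all genes. HMGCS1 stood at 6.49 and 7.08 FPKM, against 5.73 and 4.68 FPKM (0.33 ± 0.11, limma adjusted p = 0.128). IDI1, which isomerises isopentenyl diphosphate, stood at 1.28 and 1.60 FPKM, against 0.731 and 1.08 FPKM (0.36 ± 0.13, limma adjusted p = 0.136). EBP, a sterol isomerase, overlapped, with 19.9 and 29.4 FPKM, against 13.2 and 20.6 FPKM (0.53 ± 0.26, limma adjusted p = 0.250). With limma voom on recovered reads FASN passed beside DHCR7 and ELOVL6 (limma voom adjusted p = 0.0391), which made 3 of 30 members higher, against 3.33% of all genes.

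The lowest fitted changes were those of FDFT1, the squalene synthase, and ACACA, the carboxylase that makes malonyl-CoA. FDFT1 stood at 14.7 and 10.1 FPKM in andrographis-treated SW480 cells, against 15.8 and 16.0 FPKM in controls (-0.36 ± 0.16, limma adjusted p = 0.218). ACACA stood at 1.77 and 1.18 FPKM, against 3.60 and 1.53 FPKM (-0.47 ± 0.27, limma adjusted p = 0.315), so its groups overlapped and its controls differed more from each other than the group means did. With 1 library left out these values ran from -0.60 to -0.11 for FDFT1, the ends being without treated replicate 1 and without treated replicate 2, and from -0.90 to -0.04 for ACACA, without control replicate 2 and without control replicate 1. SREBF1 stood at 30.4 and 23.5 FPKM, against 35.0 and 30.1 FPKM (-0.27 ± 0.15, limma adjusted p = 0.313), and SREBF2 at 14.6 and 9.56 FPKM, against 11.1 and 12.3 FPKM (0.02 ± 0.18). SCAP stood at 28.9 and 19.6 FPKM, against 27.0 and 19.1 FPKM (0.07 ± 0.21), and INSIG1 at 2.18 and 1.96 FPKM, against 1.45 and 2.0 FPKM (0.18 ± 0.13, limma adjusted p = 0.418). All 4 regulators overlapped between the groups, and with 1 library left out SREBF1 ran from -0.45 to -0.09 and INSIG1 from 0.03 to 0.33. MVD (-0.34), CYP51A1 and TM7SF2 (both -0.23), FDPS (-0.22) and MVK (-0.18) lay below their controls in both libraries. ACLY (0.28), SC5D (0.14) and LSS (0.13) lay above them. The other members, STARD4 (-0.30), SCD (-0.30), SQLE (-0.11), HSD17B7 (-0.08), FADS2 (-0.05), PMVK (-0.03), MSMO1 (-0.02), FADS1 (0.01), ACAT2 (0.07) and NSDHL (0.25), overlapped.

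The SW480 libraries of this experiment limit what can be said of these genes. The median gap between the 2 libraries of a group, over the members, was 0.21 log2 units in andrographis-treated SW480 cells and 0.20 in their controls, against 0.06 and 0.07 in the HCT116 groups. Over all genes the SW480 gaps were 0.24 and 0.19. SCD, for instance, stood at 30.4 and 16.1 FPKM in the treated libraries, against 25.6 and 29.5 FPKM in controls. The call of DHCR7 was kept without treated replicate 1 and lost without each of the other 3 libraries, and that of ELOVL6 was lost without either control. Without treated replicate 1 the fit changed 5 of 30 members (DHCR7, ELOVL6 and FASN higher, FDFT1 and SCD lower), below its 23.2% of all genes. It changed 2 without treated replicate 2 (ELOVL6 and NSDHL), against 7.34% of all genes, 1 without control replicate 1 (FASN), against 4.86%, and 0 without control replicate 2, against 1.03%. The fatty acid median was -0.21 without treated replicate 1 and 0.24 without treated replicate 2, and the sterol median was -0.11 without treated replicate 1. The lone library of a group was then assumed to vary like the others.

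**Figure D3:**
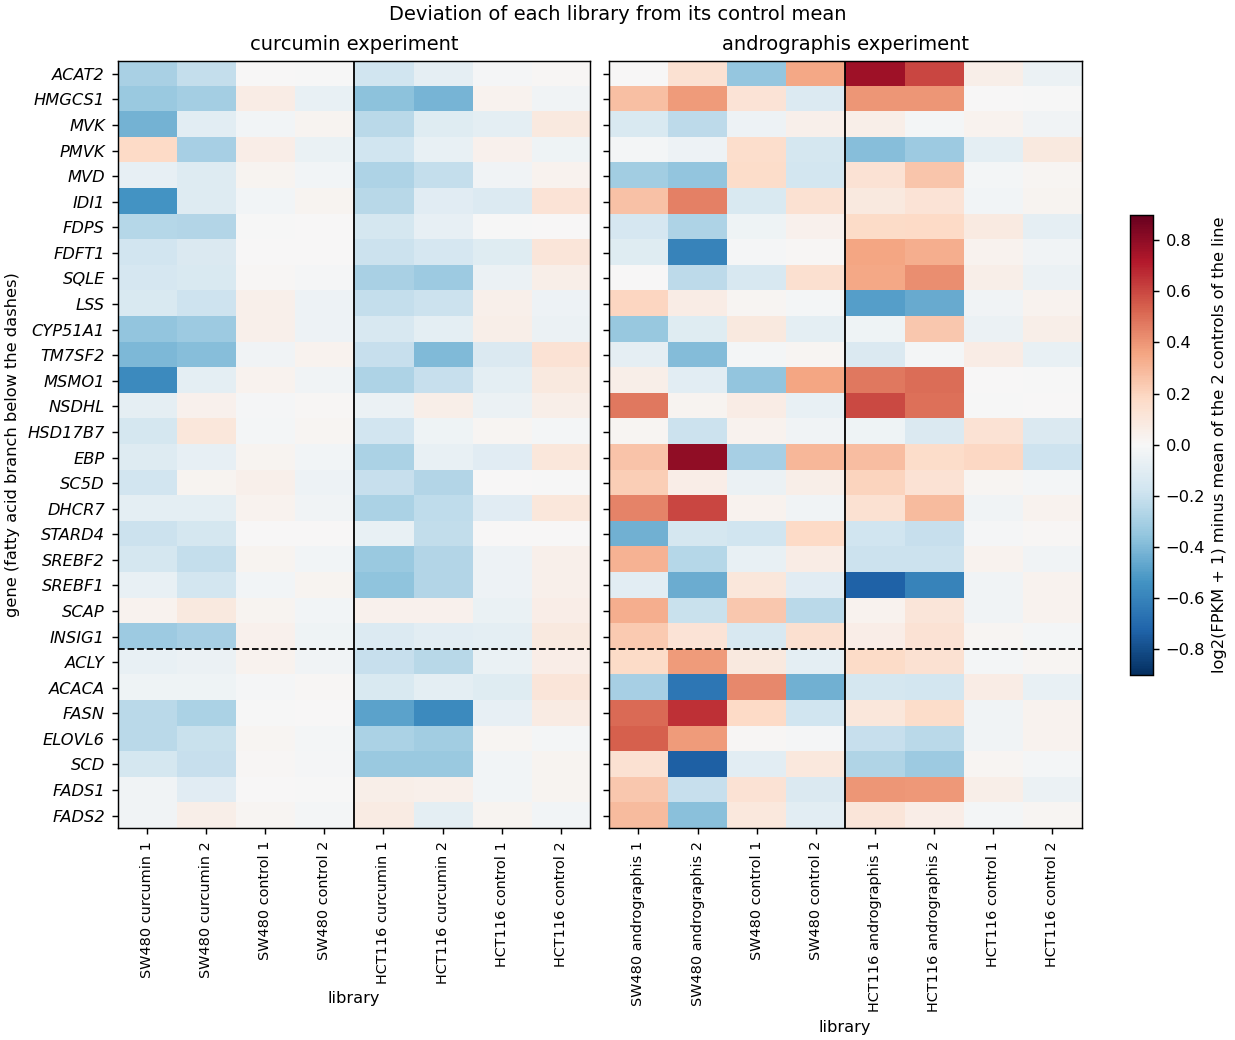
Each library's log2(FPKM + 1) minus the mean of the 2 controls of its line, for the 30 genes (rows) and the 8 libraries of each experiment (columns). The curcumin-treated libraries are mostly blue (lower), and the 2 SW480 libraries given andrographis differ in sign for genes such as SCD, with 30.4 and 16.1 FPKM.

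In HCT116 cells andrographis was followed by lower SREBF1 and LSS, whereas several other sterol enzymes stood above their controls without passing the test. SREBF1 (chr17:17811334-17836986) and LSS, the lanosterol synthase (chr21:46188446-46228774), were 2 of 30 members changed, against 6.82% of all genes changed and 3.95% changed downwards. Both treated libraries lay above both controls for 17 members (13 sterol, 4 fatty acid), against 34.0% of all genes, and below them for 8, against 38.5%. The median was 0.10 over the sterol branch, 16 above 0 and 7 below, and 0.09 over the fatty acid branch, beside -0.02 over all genes. The fitted change was above 0 for 20 of 30 members, against 46.7% of all genes, and below 0 for 10, against 52.7%. An unadjusted p under 0.05 was reached by 7 members, against 23.7% of all genes, and the threshold of the methods by 3 (ACAT2, NSDHL and SREBF1), against 9.19%. These counts, like that of the changed members, are near the share over all genes.

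SREBF1 stood at 37.5 and 41.1 FPKM in andrographis-treated HCT116 cells, against 61.5 and 64.4 FPKM in their controls (-0.67 ± 0.15, limma adjusted p = 0.0478). LSS stood at 1.58 and 1.65 FPKM, against 2.55 and 2.73 FPKM (-0.48 ± 0.10, limma adjusted p = 0.0366), from 335 and 314 reads, against 424 and 392. Both genes were lower in both treated libraries, with replicates that lay close together. The other regulators moved less. SREBF2 stood at 38.0 and 38.2 FPKM, against 44.6 and 42.8 FPKM (-0.19 ± 0.18, limma adjusted p = 0.605). INSIG1 stood at 13.1 and 13.8 FPKM, against 12.8 and 12.4 FPKM (0.09 ± 0.13), and SCAP at 30.8 and 32.5 FPKM, against 29.5 and 30.8 FPKM (0.07 ± 0.21).

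ACAT2 had the highest fitted change of the sterol branch, with 33.0 and 29.4 FPKM in andrographis-treated HCT116 cells, against 19.8 and 18.4 FPKM in controls (0.68 ± 0.22, limma adjusted p = 0.116). NSDHL, a dehydrogenase that helps remove the methyl groups of lanosterol, stood at 27.2 and 25.4 FPKM, against 17.7 and 17.8 FPKM (0.54 ± 0.16, limma adjusted p = 0.0933). MSMO1 stood at 12 and 12.3 FPKM, against 8.35 and 8.29 FPKM (0.50 ± 0.21, limma adjusted p = 0.221). HMGCS1, whose promoter holds 2 of the NF-Y boxes shown above, stood at 23.3 and 23.3 FPKM, against 17.6 and 17.3 FPKM (0.40 ± 0.11, limma adjusted p = 0.0922). In each of these 4 genes the groups lay farther apart than the libraries within either group, and the test pooled their spread with that of the SW480 libraries. SQLE (0.38) and FDFT1 (0.34) also lay above their controls in both libraries, as did IDI1, FDPS, MVD, SC5D and DHCR7 with changes of 0.10 to 0.20. EBP (0.22), CYP51A1 (0.10), MVK (0.02), TM7SF2 (-0.07) and HSD17B7 (-0.08) overlapped with their controls, STARD4 (-0.19) lay below them, and PMVK, the phosphomevalonate kinase, lay lowest of the enzymes after LSS, with 18.3 and 19.2 FPKM, against 22.8 and 25.7 FPKM (-0.35 ± 0.13, limma adjusted p = 0.163).

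The fatty acid branch of andrographis-treated HCT116 cells ran from SCD to FADS1. SCD stood at 123 and 117 FPKM, against 150 and 146 FPKM in controls (-0.30 ± 0.26, limma adjusted p = 0.569), and FADS1, which adds the next double bond after FADS2, at 12 and 11.9 FPKM, against 9.20 and 8.53 FPKM (0.39 ± 0.17, limma adjusted p = 0.215). ELOVL6 stood at 5.68 and 5.48 FPKM, against 6.5 and 6.91 FPKM (-0.23 ± 0.10, limma adjusted p = 0.240). FASN, ACLY and FADS2 lay above their controls in both libraries with changes of 0.14, 0.15 and 0.09, and ACACA below them with -0.16.

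Using only the 4 HCT116 libraries, the same test changed 13 of the 30 members, 7 higher (ACAT2, NSDHL, MSMO1, HMGCS1, FADS1, SQLE and FDFT1) and 6 lower (SREBF1, LSS, PMVK, SCD, ELOVL6 and SREBF2). That fit changed 38.3% of all genes, a share close to that of the members. In contrast, leaving out any 1 of these 4 libraries from the fit across both lines left 0 members changed, against 0.398 to 0.695% of all genes, and a pseudocount of 0.1 or no filter on low genes also left 0, against 3.16% and 2.94%.

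**Figure D4:**
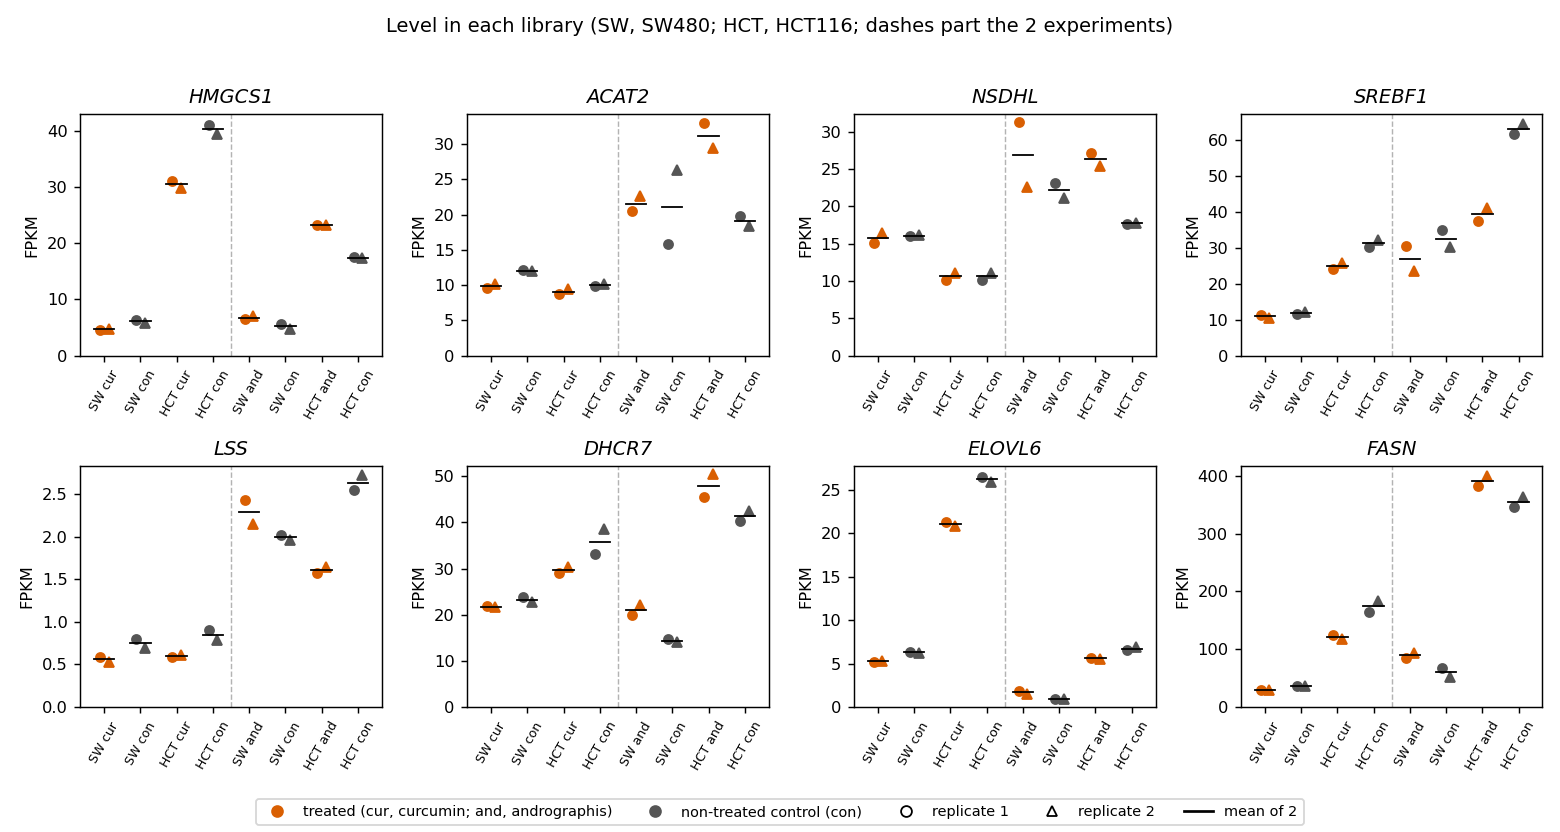
FPKM of 8 genes in every library, with treated cells (orange) left of their controls (grey), circles for replicate 1, triangles for replicate 2 and a bar for the mean of 2. SREBF1 in HCT116 cells stands at 37.5 and 41.1 FPKM with andrographis, below its controls at 61.5 and 64.4 FPKM.

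Across the lines the andrographis changes shared a sign for 19 of 30 members, 12 above 0 in both (27.6% of all genes) and 7 below 0 in both (31.3%). No member's change differed between SW480 and HCT116 after adjustment, against 2.36% of all genes, and 6 did at an unadjusted p under 0.05, against 20.0%. The widest differences, each SW480 change minus HCT116 change, were those of FDFT1 (-0.70 ± 0.23, limma adjusted p = 0.161), ELOVL6 (0.69 ± 0.14, limma adjusted p = 0.0675), LSS (0.61 ± 0.14, limma adjusted p = 0.0760) and ACAT2 (-0.61 ± 0.31, limma adjusted p = 0.332). As with curcumin, line and dose cannot be told apart in them. The differences of ELOVL6, FDFT1 and LSS passed without treated replicate 1 of SW480, where 14.4% of all genes did, and that of ELOVL6 also without treated replicate 2, where 3.11% did.

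Several members had fitted changes of opposite sign with the 2 botanicals in HCT116. They are given side by side because the experiments had separate controls and deposited values of different make-up. HMGCS1 was at -0.39 with curcumin and 0.40 with andrographis. SQLE was at -0.31 and MSMO1 at -0.24 with curcumin, and they were at 0.38 and 0.50 with andrographis. SREBF1 was below 0 with both, at -0.32 and -0.67, and so were SREBF2, at -0.29 and -0.19, and SCD, at -0.33 and -0.30. The HCT116 controls of these genes also stood at different levels, given here first for the curcumin and then for the andrographis experiment. Mean FPKM was 83.5 and 8.32 for MSMO1, 40.3 and 17.4 for HMGCS1, and 51.3 and 13.1 for SQLE. It was 696 and 148 for SCD, 59.3 and 43.7 for SREBF2, and 31.2 and 63.0 for SREBF1. The differences between botanicals were not tested.

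The surrounding pathway was described with 60 further genes in 6 lists. Among 5 remaining sterol enzymes, 8 genes of SREBP processing and 12 of fatty acid oxidation, none was changed in any of the 4 comparisons. With curcumin the 58 tested genes held 0 changes in SW480, against 0.306% of all genes, and 1 in HCT116, against 0.171%, a fall of ACSL5, an acyl-CoA synthetase that activates long-chain fatty acids (54.7 and 54.6 FPKM, against 79.5 and 82.0 FPKM in controls, limma adjusted p = 0.0456). With andrographis 4 of 60 rose and 2 fell in SW480, against 7.28% of all genes changed, and 2 rose and 2 fell in HCT116, against 6.82%. Both counts are near the share over all genes.

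ME1, the cytosolic malic enzyme that yields NADPH for fatty acid synthesis, rose in both lines given andrographis, by a log2 change of 1.24 in SW480 (56.2 and 37.4 FPKM, against 19.9 and 17.9 FPKM) and 1.29 in HCT116 (101 and 101 FPKM, against 42.3 and 39.0 FPKM), with limma adjusted p of 0.0192 and 0.0143. ACACB, the mitochondrial counterpart of ACACA, fell by 0.72 on the log2 scale in HCT116. In SW480 the lipoprotein receptor SCARB1 rose (0.68), ACSL5 and the elongase ELOVL5 rose (0.51 and 0.50), and the sterol exporter ABCG1 fell (-1.35), and in HCT116 the LXR-beta gene NR1H2 rose (0.67).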

How the data were processed

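RNA of 16 libraries was made with TruSeq kits and read as paired ends, per the study's methods. The authors deposited 1 table per experiment with log2 values, 1 column per library. Step sizes of low genes showed log2(FPKM + 1), with 1 whole gene length giving whole reads in 99.8% of tested andrographis and 97.2% of tested curcumin genes (tolerance 0.02 reads). The submitters' processing notes name STAR 2.7.8a, Partek 10.0.22.0121, bcl2fastq 2.20.0.422 and DESeq2, with GRCh38 and mm10, in no stated role. The counting tool and annotation are not given in the sources used here.

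Each experiment (8 libraries, 4 groups) was fitted with limma 3.58.1 (R 4.3.3; lmFit, eBayes with trend) on the deposited log2 values of genes at 1 FPKM or more in at least 2 libraries, with Benjamini-Hochberg adjustment over all genes tested. The fit was also run on simulated data with independent noise in each gene and library, which does not cover variation that the genes of a library share. Alternatives covered pseudocounts of 0.1 and 10, no filter and a 10 FPKM filter, 2 rescalings, a fit without trend, a replicate block, 1 comparison at a time, each library left out, and limma voom on recovered reads (added after seeing the data). The intervals given cover these libraries only, and counting error is smallest in the deepest ones.

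All 30 members are accounted for. Values per library are given for changed members (up to 8 per comparison), the highest and lowest fitted change of each branch, and INSIG1, SREBF1, SREBF2 and SCAP, with others added where a group is described. Genes of the surrounding lists are named when changed by over 0.5 on the log2 scale, up to 6 per comparison. The members, lists and rules were chosen with earlier results of these data known.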

Additional observations from a re-analysis of the deposited data

Results flagged for a closer look

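Among the 30 members and the 60 surrounding genes, ACSL5 was the only one whose andrographis change differed between the lines after adjustment. Its change in SW480 minus that in HCT116 was 0.97 (limma adjusted p = 0.0314), and line and dose cannot be told apart in it. It stood at 3.47 and 3.08 FPKM in andrographis-treated SW480 cells, against 1.91 and 2.10 FPKM in their controls, and at 45.2 and 44.0 FPKM in andrographis-treated HCT116 cells, against 62.6 and 60.5 FPKM in theirs.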

How the results depend on the processing

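Counts of changed members depended on the settings, and each is given with the share of all genes changed. With curcumin in SW480 the 10 FPKM filter gave 1 (2.88%), HMGCS1, at 4.61 and 4.75 FPKM, against 6.41 and 5.80 FPKM in controls. It passed that filter only through its HCT116 libraries, since the filter counts all 8 libraries of the experiment. With curcumin in HCT116 a pseudocount of 10 gave 3 (0.483%), the 10 FPKM filter 4 (2.31%) and voom 6 (1.34%). With andrographis in SW480 a pseudocount of 10 gave 0 (6.97%), no filter 0 (1.16%), the 4 libraries alone 0 (0.0%) and the 10 FPKM filter 1 (11.1%). With andrographis in HCT116 a pseudocount of 0.1 gave 0 (3.16%), no filter 0 (2.94%), a pseudocount of 10 gave 4 (10.9%), the 10 FPKM filter 1 (7.49%) and the 4 libraries alone 13 (38.3%). A pseudocount of 10 gave 1 difference between the lines with andrographis, that of LSS (4.59%). Leaving out 1 library gave 0 to 5 members with andrographis in SW480 (1.03 to 23.2%), 0 to 0 in HCT116 (0.398 to 0.695%) and 0 to 3 for the difference between the lines (0.0156 to 14.4%). The cause was not tested.

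The labels do not say whether same-numbered libraries are paired, and their deviations do not settle it. Across genes these correlated at 0.56 (SW480) and -0.0 (HCT116) with andrographis and at 0.03 and 0.2 with curcumin, over 2 pairs each. A deviation shared by replicate number in the SW480 libraries of the andrographis experiment is therefore possible, and the main fit does not model it. The replicate block gave 4 changed members in SW480 (DHCR7, ELOVL6, EBP, FASN), against 16.7% of all genes, and 4 in HCT116 (SREBF1, LSS, ACAT2, NSDHL), against 12.6%, with andrographis, and 0 in both lines with curcumin, against 0.0%.

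The sterol median with curcumin in SW480 was -0.07 with a pseudocount of 10, -0.13 with libraries scaled to 1 median and -0.21 with libraries scaled to 1 protein-coding total, and -0.17 to -0.13 with 1 library left out. The fatty acid median there was -0.08 with a pseudocount of 10, -0.07 with no filter, -0.18 with the 10 FPKM filter, -0.10 and -0.18 with the 2 rescalings and -0.15 to -0.11 with 1 library left out. In HCT116 it was -0.21, -0.23 and -0.30 with a pseudocount of 10, no filter and the 10 FPKM filter, and the sterol median was -0.27 to -0.13 with 1 library left out. With andrographis in HCT116 the sterol median was 0.13, 0.05, 0.19 and 0.13 and the fatty acid median 0.13, 0.02, 0.15 and 0.14 with pseudocounts of 0.1 and 10, the 10 FPKM filter and voom, and the sterol median was 0.08 to 0.13 with 1 library left out. In SW480 the sterol median was -0.11 to 0.03 and the fatty acid median -0.21 to 0.24 with 1 library left out. FADS2 with curcumin in SW480 was -0.03 when scaled to 1 protein-coding total. With 1 library left out, the sign also turned for FADS2 with curcumin in SW480 (-0.04 to 0.05), SCAP with curcumin in HCT116 (-0.02 to 0.10), and SCAP (-0.20 to 0.34) and SREBF2 (-0.26 to 0.30) with andrographis in SW480.

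With 2 libraries per group the spread is poorly known, and the shallowest curcumin library held 9.40 M (mega) reads.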
